A study of Eucalyptus nitens with 12 samples.

Results

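The 81 genes described here were weakly expressed in the cambial scrapings of Eucalyptus nitens trees with a high Kraft pulp yield (KPY) and lower still in trees with a low KPY, in both of the trials sampled. They were chosen by their levels alone. Of the genes with an identifier of the related species E. grandis that had exactly 1 transcript in each trial (12224 genes), those were kept whose mean in the high KPY bulks lay between 1 and 20 CPM (read counts scaled to a common library size by TMM factors) in both trials (4953 genes). A gene was then taken if its ratio of low to high KPY, L, was at or below -1.5 in both trials, where L is the log2 of the mean low KPY level plus 0.1 CPM over the mean high KPY level plus 0.1 CPM. This left 87 genes, 1.76% of those in the range, and 6 of the 10 genes named in the rule as left out were among them. The opposite change, an L of at least 1.5 in both trials, was found in 193 of the 4953 genes. The range bounds the level in high KPY alone, so the numbers of falling and rising genes are not counted on equal terms. Because low against high KPY chose the genes, every value of that comparison below is a description and carries no test.

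KPY is the share of dry wood that remains as pulp after cooking by the Kraft process. The trees were plantation E. nitens, given as 20 years old in the labels, grown outdoors at Meunna and Florentine in Tasmania and taken from the extremes of KPY in each trial. By the study's dates, both trials were established in the same year and sampled less than 20 years later, Florentine in the later year. Each library is a bulk of RNA from several trees of 1 class, with 3 bulks of high KPY and 3 of low KPY in each trial, so that 12 libraries came from 4 groups. No treatment was given, the trees differ in genotype, and the classes rest on a measured wood trait. The study found KPY positively correlated with stem diameter in both trials, and low KPY trees were generally smaller. Pulp yield and growth therefore cannot be told apart in low against high KPY. The trials differ in site, in the year and month of sampling and so in tree age, in the number of trees in a bulk (larger in Florentine) and in the transcripts assembled for them. These cannot be told apart in a comparison of the trials, and the number of trees in a bulk also bears on the spread between bulks. Counts per library ranged from 49489614 to 70097142 in Meunna low KPY, 75565811 to 89987549 in Meunna high KPY, 44538273 to 53775708 in Florentine low KPY and 45345079 to 45986808 in Florentine high KPY. A level of 1 CPM stood for about 71.5 counts in Meunna and 47.6 in Florentine.

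The labels give the tissue as xylem. Wood is made by the cambium, whose inner daughter cells expand, lay down a thick secondary wall of cellulose, xylan and lignin, and die. Cellulose is spun by synthase complexes in the plasma membrane along microtubules, COBRA-like proteins act in its deposition, and laccases and peroxidases couple the units of lignin in the wall. Auxin from the shoot keeps the cambium dividing, and NAC and MYB proteins switch on the wall genes. Markers of wood-forming xylem were abundant. The 16 xylem markers that are not among the 81 genes summed to between 9237 and 12377 CPM in the Meunna high KPY bulks and between 1560 and 2721 CPM in the low KPY bulks, against 17012 to 19690 and 2992 to 7690 CPM in Florentine. This fall of the sum did not hold for every xylem marker. Eucgr.F03589, named for a xylem cysteine peptidase, had group means of 32.5 CPM in high KPY and 33.5 CPM in low KPY in Florentine. In Meunna its mean was lower in low KPY. The summed markers of leaf, green bark and cork were, like the summed xylem markers, lower in low KPY, though not gene by gene. The 6 genes of leaf and green bark summed to 212 to 284 CPM in Meunna high KPY and 91.1 to 127 CPM in low KPY, and to 255 to 280 and 108 to 168 CPM in Florentine. The 4 cork list genes outside the 81 summed to 34.4 to 43.6 and 5.10 to 8.79 CPM in Meunna, and to 30.2 to 43.4 and 9.19 to 25.8 CPM in Florentine. All genes of the cork list were matched by the family name HXXXD-type acyl-transferase alone, which does not by itself mark cork. Eucgr.B01053, a leaf list gene, went the other way, with group means of 12.0 CPM in high KPY and 16.7 CPM in low KPY in Meunna and 10.7 and 18.6 CPM in Florentine, as did the cork list gene Eucgr.J00364 in Florentine alone, at 3.02 and 4.91 CPM. The single cambium marker lay at 272 to 345 and 173 to 203 CPM in Meunna, and at 252 to 263 and 154 to 214 CPM in Florentine. The single phloem marker was weak, at 1.78 to 3.44 and 0.153 to 0.662 CPM in Meunna, and at 1.23 to 2.18 and 0.203 to 1.11 CPM in Florentine. In bulks of tissue, fewer cells of a type and less RNA per cell cannot be told apart, and the part of cell makeup in the values below was not tested.

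The fall was deeper in Meunna. The median L was -2.31 for Meunna (lowest -3.93, highest -1.5) and -1.67 for Florentine (lowest -2.87, highest -1.5). The mean level in high KPY was a median 5.63 times that in low KPY in Meunna (2.94 to 17.6 times) and 3.32 times in Florentine (2.87 to 8.12 times). L was lower in Meunna for 71 genes and lower in Florentine for 10, and the median difference was 0.66. In Meunna 60 genes had an L at or below -2 and 12 at or below -3, whereas in Florentine 10 reached -2. The limit in Florentine therefore decided most of the selection: of the genes in the range, 308 had an L at or below -1.5 in Meunna and 108 in Florentine. The levels themselves were small. The group means had a median of 6.53 CPM in Meunna high KPY, 1.08 in Meunna low KPY, 6.58 in Florentine high KPY and 1.90 in Florentine low KPY, and 38 genes averaged under 1 CPM in Meunna low KPY and 14 in Florentine low KPY. In 13 genes some Meunna low KPY library held fewer than 10 counts, and in Florentine low KPY this held for 1 gene, so that ratios of such genes have a wide counting error.

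**Figure D1:**
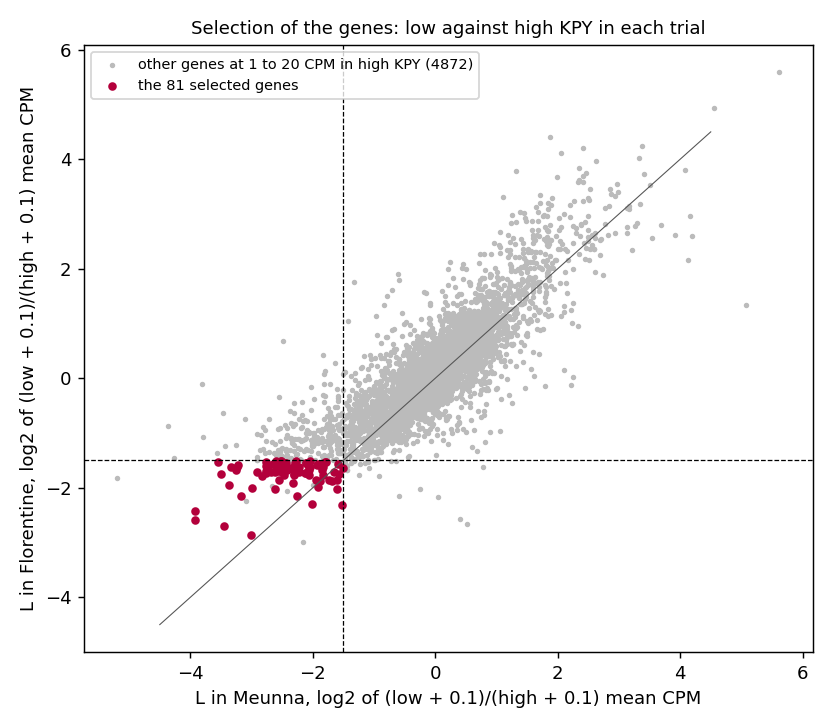
L in Meunna (horizontal) and in Florentine (vertical) for the 4953 genes at 1 to 20 CPM in high KPY. The 81 selected genes (red) lie below both dashed limits of -1.5, mostly above the diagonal of equal change because the fall in Meunna was the deeper one for 71 of them, and 6 grey points in the same corner are genes left out by name.

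In Meunna every low KPY bulk lay below every high KPY bulk in 78 of the 81 genes, an order found in 26.7% of all transcripts of that trial. In Florentine it held for 79 genes, against 29.0% of all transcripts. The 3 exceptions in Meunna were Eucgr.F03582, Eucgr.G03295 and the unannotated Eucgr.H00867, and the 2 in Florentine were Eucgr.G02129 (PLANT CADMIUM RESISTANCE 2) and Eucgr.H01970, all named for this after their values were seen where no rule names them. By edgeR's quasi-likelihood test at an FDR of 0.05, low KPY was lower for 69 of the 81 in the Meunna fit, for 75 in the Florentine fit and for 63 in both. Over all transcripts the test called 16.9% lower and 11.1% higher in Meunna, and 20% lower and 19.5% higher in Florentine. The rule used these contrasts, so nothing is read from the counts. Without Meunna high KPY bulk 3 the Meunna count was 44. Without Florentine high KPY bulk 1 or bulk 3 the same test called 0 genes in Florentine, although 75 and 76 of the 81 had an unadjusted p under 0.05, and without Florentine low KPY bulk 3 it called 26.

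Levels below are given for bulks 1, 2 and 3 in that order, and with high KPY before low KPY where the class is not named. The lowest mean L belonged to Eucgr.D01630, a basic helix-loop-helix (bHLH) DNA-binding protein. Its bulks read 4.89, 8.81 and 16.2 CPM in Meunna high KPY and 0.821, 0.319 and 0.555 CPM in Meunna low KPY, and 14.9, 11.1 and 15.5 CPM and 3.26, 0.390 and 3.01 CPM in Florentine, an L of -3.92 and -2.59. The classes did not overlap in either trial, and Florentine low KPY bulk 2 was far below its fellow bulks. Next came Eucgr.H03407, annotated only as an unknown protein, which gave 8.23, 11.2 and 12.6 CPM in Meunna high KPY, 0.886, 0.0555 and 0.877 CPM in Meunna low KPY, 9.18, 9.23 and 16.6 CPM in Florentine high KPY and 3.42, 1.14 and 1.67 CPM in Florentine low KPY. Its L of -3.93 was the lowest of all in Meunna, and there bulk 2 of low KPY held 4 counts. A second unknown protein, Eucgr.H01054, had 1.64, 2.16 and 7.93 CPM in Meunna high KPY and 0.495, 0.0694 and 0.233 CPM in low KPY, with 6.12, 5.22 and 6.64 CPM and 1.13, 0.322 and 1.08 CPM in Florentine. Here the Meunna high KPY bulks were uneven, with bulk 3 well above the others, while those of Florentine were close together.

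Eucgr.G03295, named for serine carboxypeptidase-like 40, belongs to a family of peptidases and acyltransferases and had the lowest L of all in Florentine, -2.87. Its Florentine bulks read 5.21, 5.55 and 8.10 CPM in high KPY and 0.647, 0.678 and 0.998 CPM in low KPY. In Meunna it read 6.31, 1.09 and 8.38 CPM and 1.48, 0.0555 and 0.161 CPM, so that high KPY bulk 2 lay below low KPY bulk 1 and the classes overlapped. Eucgr.D01302, a cytochrome P450 of the CYP77B type, measured 4.66, 4.59 and 7.25 CPM in Meunna high KPY, 0.625, 0.388 and 0.555 CPM in Meunna low KPY, 11.8, 6.57 and 12.9 CPM in Florentine high KPY and 3.95, 0.780 and 2.06 CPM in Florentine low KPY. Eucgr.J02930, annotated as profilin PRF5, a protein that binds actin monomers, completed the 6 lowest with 4.26, 6.81 and 11.7 CPM and 0.586, 0.652 and 0.680 CPM in Meunna and 9.16, 5.20 and 6.66 CPM and 2.69, 0.746 and 1.79 CPM in Florentine. Its Meunna low KPY bulks were nearly equal. Of the other genes annotated as profilins, both were called lower in each trial, with L between -1.05 and -0.81 (Meunna) and between -1.06 and -0.69 (Florentine). The cytoskeleton list, which holds this gene as its only one of the 81, had 49 of 55 genes lower in Meunna and 52 in Florentine.

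**Figure D2:**
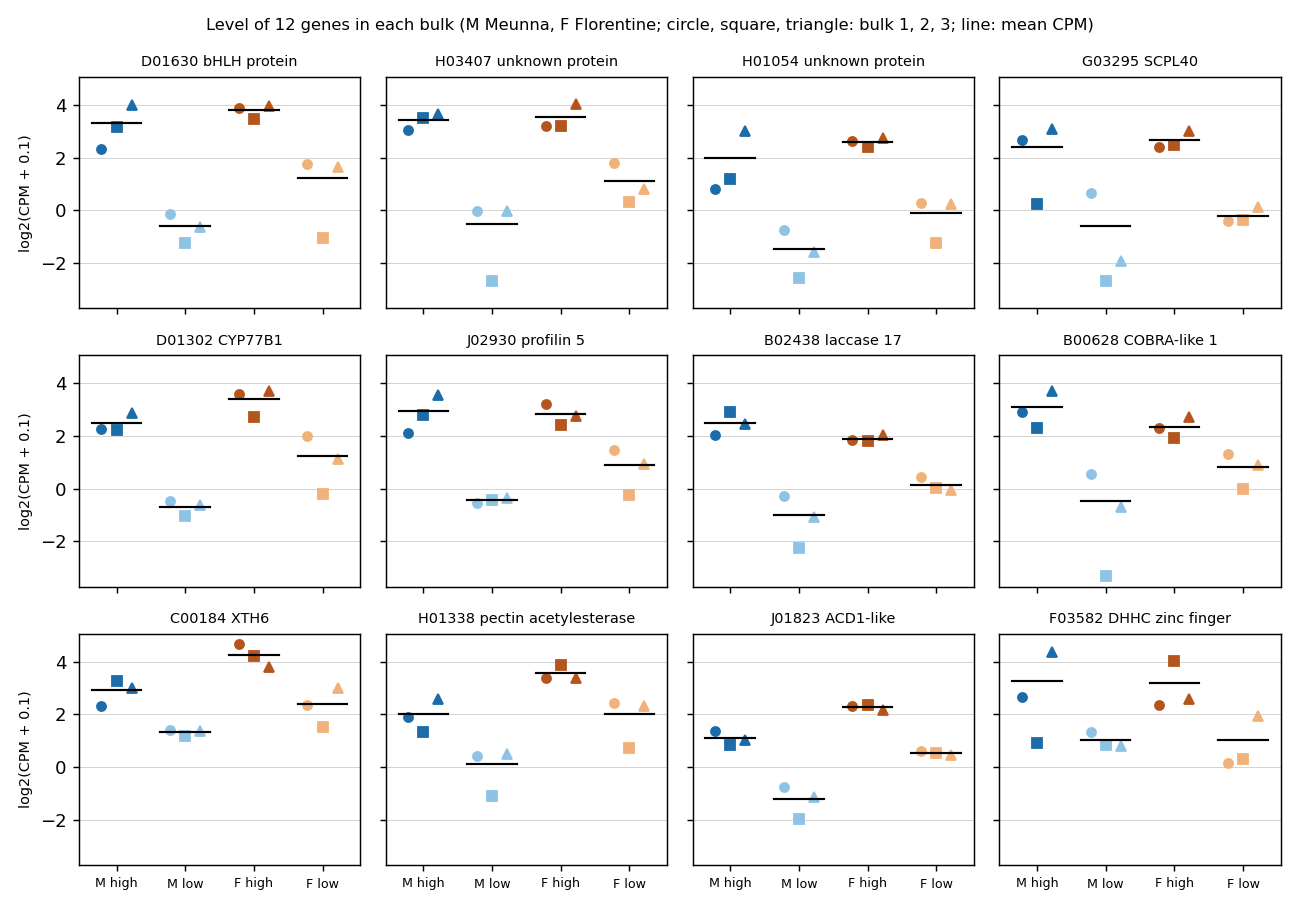
Level of 12 of the genes in every bulk, as log2 of CPM plus 0.1, for Meunna (blue) and Florentine (orange), with high KPY dark and low KPY pale; symbols mark the bulk number and the line is the group mean. In Meunna low KPY the square (bulk 2) is often the lowest point, as for H03407 and B00628, whereas the Florentine bulks of J01823 and the Meunna low KPY bulks of J02930 lie close together.

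The annotation, taken from the study's tables and based on the closest Arabidopsis gene, named 79 of the 81 genes, and 25 were annotated as unknown proteins or families of unknown function or not at all. Since those tables mainly hold transcripts that were called, 2660 of the 12224 genes had a name, and of the named genes 54.7% (Meunna) and 55.3% (Florentine) were called lower in low KPY, against 22% and 24.1% of all 12224. Counts for a list are read beside those shares. In the list for cellulose and hemicellulose synthesis, 27 of 29 genes were called lower in Meunna and 28 in Florentine, with a median log2 fold change of -2.03 and -1.48, and 0 were higher. It holds 4 of the 81. Eucgr.B00628, a COBRA-like COBL1 homologue, read 7.38, 4.86 and 13.0 CPM in Meunna high KPY and 1.37, 0 and 0.519 CPM in Meunna low KPY, where bulk 2 had no count, and 4.86, 3.72 and 6.44 CPM and 2.40, 0.881 and 1.76 CPM in Florentine. This gene had the largest difference of L between the trials, -3.55 against -1.52. Eucgr.H04021, a homologue of COBL7, was among the 3 genes that fell furthest in Florentine relative to Meunna, with an L of -1.61 and -2.03. Its bulks gave 3.62, 4.32 and 5.12 CPM and 1.88, 0.277 and 1.93 CPM in Meunna and 2.49, 4.84 and 3.02 CPM and 1.57, 0.237 and 0.507 CPM in Florentine. The third COBRA-like gene, Eucgr.H04612, was the one closest to the limit in Meunna, at -1.5, with 1.09, 1.61 and 2.99 CPM in high KPY and 0.508, 0.666 and 0.644 CPM in low KPY. In Meunna the test called Eucgr.H04612 but neither Eucgr.B00628 nor Eucgr.H04021, and in Florentine it called all 3. The 3 COBRA-like genes outside the 81 were called lower in both trials, with L between -2.34 and -1.23 (Meunna) and between -1.53 and -0.98 (Florentine).

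The fourth gene of this list, Eucgr.G01386, encodes a DUF579 protein, a family that in Arabidopsis includes proteins of xylan synthesis and methylation. It read 5.73, 4.54 and 4.43 CPM and 1.41, 0.222 and 0.877 CPM in Meunna, and 3.60, 3.37 and 4.71 CPM and 1.65, 0.678 and 1.13 CPM in Florentine. All 6 genes annotated with DUF579 were called lower in each trial. Of the lignin and wall oxidases, 20 of 32 genes were lower in each trial, while 2 were higher in Meunna and 7 in Florentine. Eucgr.B02438, named for LAC17, a laccase of lignin polymerization in Arabidopsis stems, had 4.01, 7.37 and 5.42 CPM in Meunna high KPY, 0.729, 0.111 and 0.376 CPM in Meunna low KPY, 3.53, 3.37 and 3.96 CPM in Florentine high KPY and 1.25, 0.915 and 0.862 CPM in Florentine low KPY. The classes were far apart in Meunna and less so in Florentine, an L of -3.50 against -1.74. Of the 6 other laccases, 5 were called lower in each trial, and L ranged from -2.95 to 3.17 in Meunna. The highest L was that of Eucgr.B01307, whose high KPY mean in Meunna was only 0.280 CPM. It was called higher in Meunna and not called in Florentine. Eucgr.B03781, an L-ascorbate oxidase, went the other way between the trials, with an L of -2.02 in Meunna and -2.30 in Florentine. It measured 4.39, 2.92 and 11.1 CPM and 1.61, 2.14 and 0.572 CPM in Meunna, where bulk 3 was the highest of high KPY and the lowest of low KPY, and 7.73, 9.21 and 4.21 CPM and 2.15, 0.271 and 1.62 CPM in Florentine.

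Among genes of wall remodelling and pectin, 30 of 43 were lower in Meunna and 26 in Florentine, and 4 and 5 were higher. Eucgr.C00184, named for XTH6, an enzyme that cuts and rejoins xyloglucan chains, read 4.88, 9.57 and 7.90 CPM in Meunna high KPY and 2.51, 2.15 and 2.47 CPM in low KPY. In Florentine its bulks read 25.3, 18.3 and 13.8 CPM in high KPY and 5.01, 2.73 and 7.86 CPM in low KPY, with bulk 1 the highest of high KPY and bulk 3 of low KPY. Eucgr.H01338, a pectin acetylesterase, which removes acetyl groups from pectin, had 3.62, 2.39 and 5.90 CPM and 1.25, 0.361 and 1.32 CPM in Meunna and 10.2, 14.6 and 10.2 CPM and 5.34, 1.53 and 4.82 CPM in Florentine. Eucgr.C03721 has the fold of pectin lyases and read 4.82, 6.30 and 6.27 CPM and 1.16, 0.0277 and 1.43 CPM in Meunna, where low KPY bulk 2 held 2 counts, and 6.25, 7.69 and 5.82 CPM and 2.82, 0.797 and 2.62 CPM in Florentine. Of the 14 other genes with that annotation, 13 were called lower in Meunna and 11 in Florentine, and 0 were higher in either trial.

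Hormone genes were few. The auxin list had 12 of 23 genes lower in Meunna and 13 in Florentine, and 3 of them are among the 81. Eucgr.H04141 is a homologue of IAA31, of the Aux/IAA repressors that auxin causes to be degraded, and read 9.07, 10.2 and 11.8 CPM and 2.44, 1.17 and 2.61 CPM in Meunna and 15.7, 15.3 and 16.8 CPM and 7.29, 3.14 and 6.21 CPM in Florentine. A related gene, Eucgr.C02329, the homologue of IAA33, was lower throughout, with 1.80, 2.04 and 2.39 CPM and 0.560, 0.416 and 0.519 CPM in Meunna and 4.79, 3.51 and 5.28 CPM and 2.32, 0.627 and 1.37 CPM in Florentine. The SAUR-like gene Eucgr.C00771, from a family induced early by auxin, had 1.92, 2.40 and 3.21 CPM and 0.560, 0.194 and 0.519 CPM in Meunna and 3.53, 3.99 and 4.43 CPM and 1.13, 0.559 and 1.29 CPM in Florentine. Both genes of hormone synthesis stood out for their Meunna high KPY bulks. Eucgr.F01409, named for NCED3, which catalyses the rate-limiting step of abscisic acid synthesis, read 6.47, 10.5 and 20.3 CPM there, 3.00, 1.41 and 2.65 CPM in Meunna low KPY, 5.04, 6.88 and 5.57 CPM in Florentine high KPY and 2.25, 1.25 and 1.91 CPM in Florentine low KPY. Eucgr.C03886, named for ACC oxidase, the last enzyme of ethylene synthesis, read 3.19, 16.4 and 8.64 CPM and 0.287, 0.0694 and 2.41 CPM in Meunna and 4.99, 2.37 and 2.60 CPM and 1.02, 1.07 and 1.05 CPM in Florentine. Its spread within Meunna was wide in both classes, and there it was not called.

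Regulators and signalling proteins made up a further group. The list of transcription factors, read by words of the annotation, had 75 of 143 genes lower and 27 higher in Meunna, and 74 lower and 42 higher in Florentine. Besides the bHLH gene it holds Eucgr.G02745, a C2H2 zinc finger protein, with 8.15, 10.8 and 9.31 CPM and 3.36, 1.19 and 1.97 CPM in Meunna and 18.5, 15.2 and 21.5 CPM and 6.60, 3.37 and 5.97 CPM in Florentine. Eucgr.F03582 entered the list by the words zinc finger, but DHHC proteins attach fatty acids to other proteins. Its bulks were uneven, at 6.15, 1.80 and 20.5 CPM and 2.44, 1.68 and 1.63 CPM in Meunna and 5.04, 16.3 and 5.87 CPM and 1.02, 1.12 and 3.72 CPM in Florentine, and a single bulk carried most of the high KPY mean in each trial. Eucgr.L02268, a NAC domain gene named for NAC038, gave 6.27, 4.46 and 9.11 CPM and 2.96, 1.29 and 0.984 CPM in Meunna and 6.57, 8.66 and 6.12 CPM and 3.76, 0.949 and 2.11 CPM in Florentine. In contrast Eucgr.C00556, named for the GATA factor GATA12, was even within groups except Meunna low KPY, with 5.54, 4.35 and 5.49 CPM and 2.02, 0.943 and 1.11 CPM in Meunna and 3.65, 3.91 and 3.72 CPM and 1.29, 0.966 and 1.07 CPM in Florentine. The ovate family gene Eucgr.J00537, from a family of transcriptional repressors, was nearly constant in Florentine high KPY at 4.69, 4.51 and 4.58 CPM, against 1.75, 0.729 and 2.18 CPM in low KPY, and had 3.18, 3.86 and 3.86 CPM and 0.899, 0.375 and 0.376 CPM in Meunna. The list of kinases and receptors had 126 of 198 genes lower in Meunna and 122 in Florentine. It holds 5 of the 81. Eucgr.E02765, a receptor-like protein, was the strongest of them, at 9.65, 11.4 and 20.7 CPM and 3.65, 1.82 and 2.86 CPM in Meunna and 17.8, 18.6 and 22.5 CPM and 7.97, 3.46 and 8.13 CPM in Florentine. In the protein kinase Eucgr.J02859 the bulks read 7.93, 13.0 and 15.9 CPM and 3.28, 1.37 and 1.77 CPM in Meunna, and 15.3, 17.1 and 16.2 CPM and 8.02, 1.95 and 5.09 CPM in Florentine. The kinases Eucgr.E03542, Eucgr.E03538 (named for a MAP kinase kinase kinase) and Eucgr.J00309 (leucine-rich repeats) had L between -2.91 and -1.55 over both trials. Eucgr.E01538, a cyclin of the P4;1 type, the only cell cycle gene of the 81, had an L of -2.28 and -1.62.

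Transport and lipid genes differed in how even their bulks were. Eucgr.J00695, an ABC-2 type transporter, read 12.0, 16.0 and 23.4 CPM and 3.80, 1.55 and 2.41 CPM in Meunna and 19.7, 16.6 and 19.6 CPM and 8.77, 2.02 and 6.04 CPM in Florentine, the highest mean in high KPY of the 81 over both trials. Eucgr.D00943, named for the oligopeptide transporter OPT5, had 4.53, 4.35 and 9.55 CPM and 1.5, 0.375 and 1.27 CPM in Meunna and 13.4, 11.6 and 15.5 CPM and 7.14, 1.58 and 4.95 CPM in Florentine. The cyclic nucleotide-gated channel gene Eucgr.K01241, a homologue of the CNGC15 calcium channel, was weaker, at 2.91, 3.23 and 5.12 CPM and 0.560, 0.333 and 0.894 CPM in Meunna and 2.86, 2.99 and 3.49 CPM and 1.17, 0.373 and 0.981 CPM in Florentine. Of the 55 genes of transporters and channels, 35 were lower in Meunna and 36 in Florentine. Eucgr.H02688, of the HXXXD acyltransferases, and Eucgr.C00214, of the fatty acid hydroxylases, had an L of -3.23 and -2.73 in Meunna and -1.63 and -1.67 in Florentine. The GDSL lipase gene Eucgr.H01970 had the widest spread of all: its Florentine bulks read 2.20, 2.02 and 11.6 CPM in high KPY, where bulk 3 alone was high, and 2.65, 0.593 and 0.896 CPM in low KPY. Its Meunna bulks, 2.16, 1.90 and 2.50 CPM and 0.625, 0.194 and 0.0537 CPM, did not overlap. The other cytochromes P450, Eucgr.K02408 and Eucgr.H01124, had an L of -2.60 and -1.65 in Meunna and -1.5 and -1.71 in Florentine. In that list 11 of 19 genes were lower in Meunna and 12 in Florentine, and 4 and 3 were higher.

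Families of unknown function recurred. Of 7 annotated genes with the domain DUF868, 3 are among the 81, and all 7 were called lower in both trials. Eucgr.J02625 had 10.8, 10.8 and 19.6 CPM in Meunna high KPY, 4.62, 1.46 and 3.20 CPM in Meunna low KPY, 15.4, 15.3 and 15.5 CPM in Florentine high KPY and 6.12, 3.59 and 5.82 CPM in Florentine low KPY. Its Florentine high KPY bulks were almost equal while its low KPY bulks were not. The same held for Eucgr.C02717, at 9.65, 9.75 and 9.91 CPM and 3.74, 2.39 and 3.77 CPM in Florentine. Eucgr.L02188 differed, with even Meunna high KPY bulks of 9.59, 10.4 and 10.2 CPM, 4.23, 2.95 and 1.61 CPM in Meunna low KPY, where bulk 3 was the lowest, and 8.29, 11.2 and 10.4 CPM and 4.47, 1.32 and 2.30 CPM in Florentine. Of 5 genes with DUF1645, 2 are among the 81 and 2 others were called higher in low KPY in both trials, so this family was split. The genes named from these families were chosen after their values were seen. Genes of 1 family can share reads where their sequences are close. The study's methods set out to leave out reads that map to several transcripts, through the aligner's default limit on multiple hits, and how completely this was done was not tested, so that levels of family members are uncertain. No gene of the 81 had counts equal to those of another transcript.

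At the limits of the rule the genes formed a continuum. Just inside the Florentine limit of -1.5 lay Eucgr.K02408 (-1.503), Eucgr.J00537 (-1.504) and Eucgr.H04141 (-1.506), and just outside it Eucgr.E00278, an unknown protein (-1.497), Eucgr.B02861, a B-box zinc finger gene (-1.495), and Eucgr.H02079, with the domain DUF869 (-1.494). In Meunna Eucgr.H04612 (-1.501), Eucgr.H00867 (-1.52) and Eucgr.D00694 (-1.58) lay just inside, and Eucgr.L01389 (-1.47), named for a cellulose synthase-like gene, Eucgr.L01544 (-1.45), a cyclin, and Eucgr.K02948 (-1.45), a tautomerase, just outside. The upper limit of 20 CPM in Florentine high KPY passed between Eucgr.E02765 at 19.7 CPM and Eucgr.B00670, a microtubule motor gene, at 20.1 CPM. Eucgr.C00184 at 19.1 CPM and Eucgr.J00695 at 18.6 CPM were the next below it, and Eucgr.L02808 at 21.0 CPM and Eucgr.D02013 at 22.9 CPM the next above. In Meunna the highest of the 81 were Eucgr.D02074, an aspartyl protease, at 18.3 CPM, Eucgr.H04602 at 17.6 CPM and Eucgr.J00695 at 17.1 CPM, and the only gene kept out by that limit alone, Eucgr.J01635, lay far above it at 104 CPM. The lowest means in high KPY were those of Eucgr.A01154 (named for a CRINKLY4-related receptor), Eucgr.H04612 and Eucgr.J01823 in Meunna, at 1.64, 1.90 and 2.03 CPM, and of Eucgr.D00694, Eucgr.E00024 and Eucgr.H01124 in Florentine, at 1.34, 1.60 and 1.94 CPM.

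Within groups the bulks stood in a similar order for most of the 81 genes. The group means that the rule used are made of these bulks, so the rule favours genes with a low value in a low KPY bulk or a high value in a high KPY bulk, and the counts that follow are a description. In Meunna high KPY, bulk 3 was the highest for 62 of the 81 genes. In Meunna low KPY, bulk 1 was the highest for 62 and bulk 2 the lowest for 62, and in Florentine low KPY bulk 1 was the highest for 61 and bulk 2 the lowest for 70. In the 4953 genes of the same range in high KPY these shares were 43.5%, 29.3%, 37%, 31.9% and 36%. In Florentine high KPY the order was less uneven: bulks 1, 2 and 3 were the highest for 19, 25 and 37 genes and the lowest for 29, 39 and 13, and bulk 3 was the highest for 45.7% of the 81 against 31.0% of the 4953 and the lowest for 16.0% against 37.7%. The summed level of the 81 genes was 475, 497 and 797 CPM in the Meunna high KPY bulks, 152, 70.5 and 105 CPM in Meunna low KPY, 652, 615 and 695 CPM in Florentine high KPY and 266, 103 and 205 CPM in Florentine low KPY. Bulk 2 of low KPY was thus the lowest in both trials, and it was the lowest in both for 54 of the 81 genes, against 18.4% of the 4953. The bulk number names no shared trees between trials. The same order was not particular to weak genes: among the 111 genes above 20 CPM in high KPY in both trials with the same limit on L, Meunna high KPY bulk 3 was the highest for 104 and Florentine low KPY bulk 2 the lowest for 111. The summed xylem markers outside the 81 followed it too, with 12377 CPM in Meunna high KPY bulk 3, 1560 CPM in Meunna low KPY bulk 2 and 2992 CPM in Florentine low KPY bulk 2 as the extremes of their groups, as did the leaf and green bark markers in those 3 groups. The summed cork list genes outside the 81 followed it in Florentine low KPY but not in Meunna. Their highest Meunna high KPY bulk was bulk 1, at 43.6 CPM against 42.0 CPM in bulk 3. Their lowest Meunna low KPY bulk was bulk 3, at 5.10 CPM against 6.64 CPM in bulk 2. In 12 of the 16 xylem markers Meunna high KPY bulk 3 was the highest, and Florentine low KPY bulk 2 was the lowest in 15. Florentine high KPY bulk 3 was also the highest in 12 of them, and bulk 2 of that group the lowest in 11. Several of these markers, Eucgr.J01392 and Eucgr.K03111 among them, lay above 20 CPM in high KPY with an L at or below -1.5 in both trials. The xylem markers and the 111 genes are therefore not separate sets, and the limit on L bears on both as it does on the 81 genes. The part of the xylem markers in the order of the bulks was not tested.

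**Figure D3:**
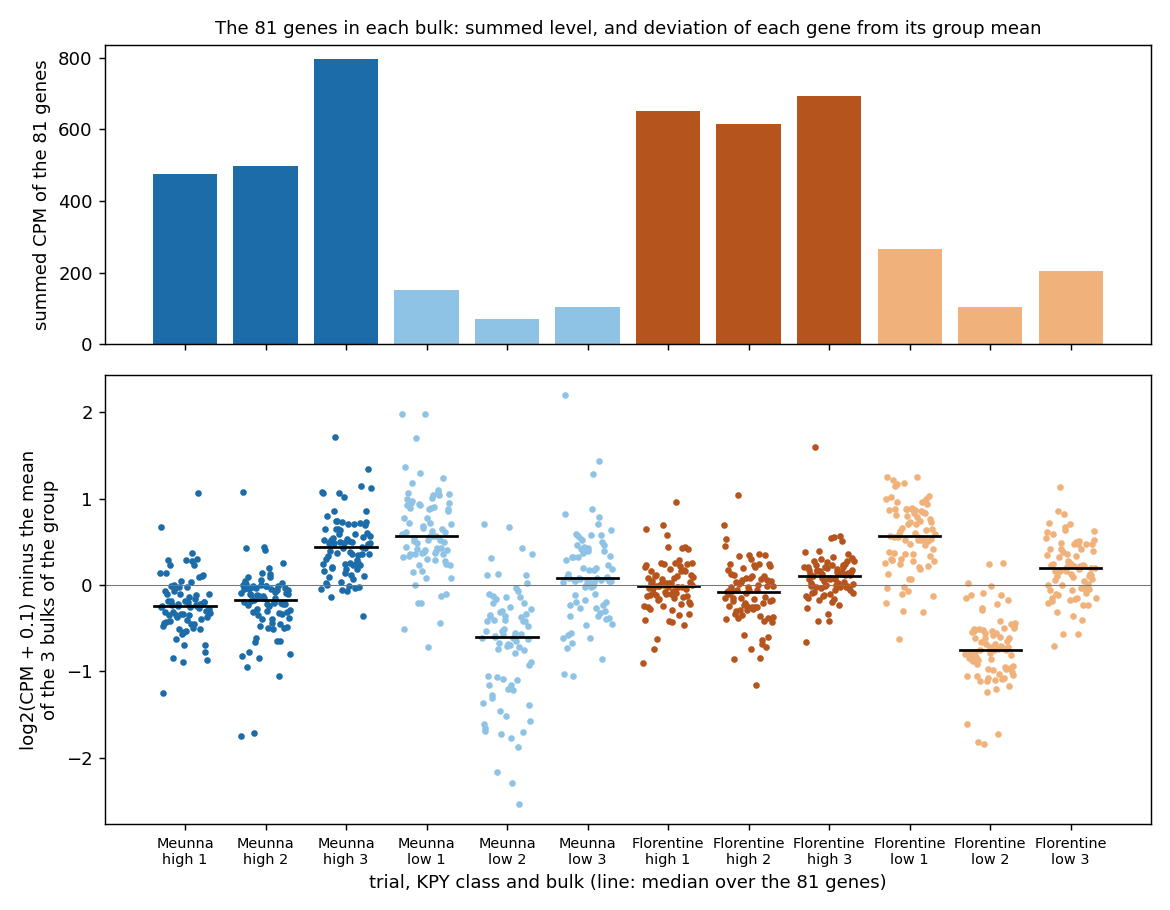
Above, the summed level of the 81 genes in each bulk in CPM; below, the deviation of each gene from the mean of the 3 bulks of its group, on the scale log2 of CPM plus 0.1, with the median as a line. The genes deviate together: Meunna high KPY bulk 3 and bulk 1 of both low KPY groups lie mostly above 0, and bulk 2 of both low KPY groups lies mostly below it.

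The spread between bulks was wide. The coefficient of variation (CV, the SD over the mean of 3 bulks) had a median of 33.3% in Meunna high KPY, 50.3% in Meunna low KPY, 17.1% in Florentine high KPY and 51.0% in Florentine low KPY. For the 4953 genes the medians were 17%, 20.8%, 14.3% and 17.6%. The low levels in low KPY add counting error, so genes whose mean lay between the quartiles of the 81 genes in the same group were taken as a second reference, chosen after seeing the data. Their median CV was 17.7%, 34.6%, 13.4% and 24.7%, and 65, 63, 53 and 73 of the 81 genes lay above it. The rule used the means of these same bulks and so favours genes with an extreme bulk, whose CV is high. Neither reference was chosen in that way, so the wider spread of the 81 genes is a description. The smallest median CV over the 4 groups was that of Eucgr.J01823 (13.1%), a gene named for similarity to ACD1 of chlorophyll breakdown in Arabidopsis, followed by Eucgr.C00556 (14.1%) and Eucgr.C02329 (17.5%). In Eucgr.J01823 the bulks read 2.47, 1.70 and 1.91 CPM and 0.482, 0.153 and 0.358 CPM in Meunna and 4.81, 5.03 and 4.41 CPM and 1.42, 1.34 and 1.29 CPM in Florentine. The largest were those of Eucgr.H01970 (91.4%), Eucgr.F03582 (73.7%) and Eucgr.H01054 (67.2%).

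The bulks that stood apart bear on which genes were selected. Without Florentine low KPY bulk 2 the rule kept 33 genes, 32 of them among the 81, and without Florentine low KPY bulk 1 it kept 149, with 80 of the 81. Leaving out Meunna high KPY bulk 3, Meunna low KPY bulk 2 and Florentine low KPY bulk 2 together, a step added after seeing the data, left 24 genes, 23 of the 81. Scaling by library size alone left 16, since TMM factors lay between 0.857 and 0.946 for high KPY and between 1.08 and 1.17 for low KPY.

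The levels of the trials within a KPY class were set against each other in 1 fit of the 12 libraries with edgeR's quasi-likelihood test, adjusted over all 12224 genes at an FDR of 0.05. Each CPM above is scaled within its own trial, while this fit scales the 12 libraries together. Its 4 groups share 1 estimate of the spread of a gene, although the spread differed between the groups. In high KPY, 7 of the 81 genes were higher in Florentine and 0 were lower. Over all 12224 genes, 12.3% were called higher and 15.3% lower, and in the 4953 genes of the same range 6.12% and 14.3%. Of the 81, 8.64% were higher. At an unadjusted p under 0.05, 15 of the 81 were higher and 1 lower, against 18.2% and 22.1% of all genes, and DESeq2 called 11 higher and 0 lower. The median log2 difference was 0.32 for the 81 genes and -0.02 for all genes, and 58 of the 81 differences were above 0. The rule held both high KPY means between 1 and 20 CPM and used them again in L, where the limit in Florentine kept fewer genes, so neither the size nor the sign of these differences is independent of the rule, and they are given as a description. Without Florentine high KPY bulk 3 the rule kept 64 of the 81.

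The genes called were Eucgr.H01338, the pectin acetylesterase, with a log2 difference of 1.74 ± 0.54 (SE, 3 bulks a group), and Eucgr.C00184, the xyloglucan enzyme, with 1.55 ± 0.36. Eucgr.C01582, a TauE/SafE family exporter, differed by 1.5 ± 0.46. Its high KPY bulks read 7.68, 5.74 and 8.49 CPM in Meunna and 23.3, 11.1 and 19.9 CPM in Florentine, and its low KPY bulks 2.83, 1.28 and 2.02 and 9.77, 2.51 and 6.31 CPM. The other genes were Eucgr.J01823 (1.40 ± 0.32), Eucgr.C02329, the homologue of IAA33 (1.31 ± 0.38), Eucgr.G02745, the C2H2 gene (1.15 ± 0.35), and Eucgr.H04380, a ribose 5-phosphate isomerase of the pentose phosphate pathway (1.07 ± 0.32), the last named after its value was seen. On the CPM scaled within each trial, every Florentine high KPY bulk was above every Meunna high KPY bulk in 14 of the 81 genes, these 7 among them, and below in 5, against 12.8% and 39.4% of the 12224 genes. With the replicate number as a block, 12 genes were higher and 0 lower. The bulks of the trials hold different trees, so the number is no pairing by design, and this count is only an alternative. Leaving out 1 library gave between 2 and 10 genes higher: 2 without Meunna high KPY bulk 2, Florentine high KPY bulk 1 or Florentine high KPY bulk 3, and 3 without Meunna high KPY bulk 1. Only Eucgr.C00184 and Eucgr.J01823 were past the threshold under every alternative at that FDR, including each library left out.

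In low KPY the same fit put 25 of the 81 genes higher in Florentine and 1 lower, against 15.9% and 10.9% of all genes. This difference is close to the difference in high KPY plus the difference of L between the trials, both of which the rule limits, so it is given as a description. Among the genes past the threshold, the largest was that of Eucgr.H01743, a fringe-related protein, from a family of putative glycosyltransferases, with 3.11 ± 0.63 (SE). Its low KPY bulks read 0.117, 0.166 and 0.340 CPM in Meunna and 1.27, 1.93 and 1.66 CPM in Florentine, without overlap, and its high KPY bulks 5.38, 1.17 and 2.48 and 5.50, 3.01 and 7.01 CPM. Eucgr.F00023, with the domain DUF547, followed with 2.26 ± 0.55, at 0.742, 0.402 and 0.537 CPM and 3.90, 0.983 and 2.67 CPM in low KPY. Eucgr.D00943, the OPT5 homologue, had 2.22 ± 0.59. The gene lower in Florentine was Eucgr.D00694, an unknown protein, at -1.17 ± 0.39, with 0.951, 0.638 and 0.823 CPM in Meunna low KPY and 0.271, 0.186 and 0.524 CPM in Florentine low KPY. All 7 genes called in high KPY were also among the 25. The count of 25 was 14 without Meunna low KPY bulk 2, 9 without Florentine low KPY bulk 1, 12 without Florentine low KPY bulk 3 and 4 with only the low KPY libraries in the fit, and the call of Eucgr.D00694 was kept only without Meunna high KPY bulk 3, Florentine low KPY bulk 1 or Florentine low KPY bulk 3. Eucgr.H00867, which has no annotation, had the largest difference of L in favour of Florentine, -1.52 against -2.31. Its Meunna low KPY bulks read 5.59, 0.402 and 0.948 CPM, with bulk 1 alone high, against 3.96, 8.79 and 7.67 CPM in high KPY, and its Florentine bulks 6.15, 3.42 and 3.20 CPM in high KPY and 0.731, 0.932 and 0.676 CPM in low KPY.

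**Figure D4:**
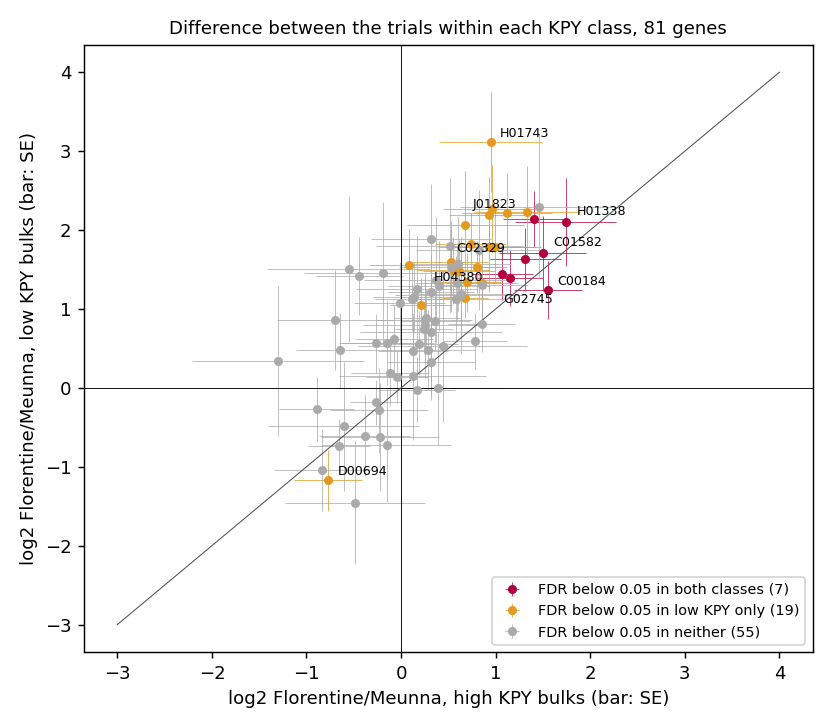
Log2 difference of Florentine over Meunna within high KPY (horizontal) and within low KPY (vertical) for the 81 genes, with SE bars; colours give the classes in which the difference passed an FDR of 0.05. The 7 genes called in both classes lie at the upper right, and most points lie above the diagonal, which follows from the deeper fall in Meunna of 71 genes.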

How the data were processed

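The data are 12 sequenced bulks of RNA from scrapings of the cambium of E. nitens. The authors pooled the trimmed reads of a trial, mapped them to the E. grandis genome with TopHat, assembled transcripts without an annotation, obtained counts per bulk with BEDtools and removed transcripts that did not reach 1 CPM in at least 3 libraries. Genome version and strand setting are not given in the sources used here, so overlapping genes cannot be told apart. The deposited values are raw counts per transcript with the identifier of an E. grandis gene; 0 columns of values were left out.

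CPM were computed here with TMM factors of each trial in R 4.3.3 with edgeR 4.0.16. The 81 genes and the gene lists were chosen with earlier results of these data known. Low against high KPY was fitted in each trial, and Florentine against Meunna in 1 fit of the 12 libraries over the 12224 genes, with the quasi-likelihood F test of edgeR, Benjamini-Hochberg adjustment and a threshold of 0.05; the SE is the log2 fold change over the square root of F. The tests were run on simulated data. DESeq2 1.42.0, other scalings, filters, pseudocounts, a replicate block and leaving out each library were the alternatives. Nothing in the labels ties bulks of the same number, nor says that bulks are more than separate samples of a class, so p-values measure the spread between bulks. In the fit of the 12 libraries that spread, and with it the SE, is shared by the 4 groups and is not that of the compared bulks alone. Over the 12224 genes, same-numbered high KPY bulks of the trials deviated from their group means with correlations of 0.19, 0.27 and 0.47, and those of low KPY with 0.21, 0.37 and -0.01; within Meunna they were -0.07, 0.10 and 0.24 and within Florentine -0.09, 0.38 and -0.02. The bulks of the trials hold different trees, so these correlations do not make the numbers a pairing. The replicate block is given only as an alternative.

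Genes were named by a rule: the 6 lowest mean L, up to 6 genes per list by high KPY level, the 3 largest trial differences in each direction past the threshold, the 3 genes nearest each limit, the 3 largest and smallest CV, and the 3 largest differences of L in each direction. Others are marked as named after their values were seen. Annotation words come from the study's tables, of which a shortened copy was used; sequences were not used here.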

Additional observations from a re-analysis of the deposited data

How the results depend on the processing

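The selection was sensitive to its own limits. The rule kept 16 genes with scaling by library size only, 37 with a pseudocount of 0.5 CPM, 313 with a limit on L of -1 and 8 with a limit of -2, and between 33 and 149 genes when 1 library was left out; without the 3 bulks that stood apart, chosen after seeing the data, it kept 24. RLE scaling (84 genes), no pseudocount (100) and any transcript of a gene (94) stayed within 1.5 times of 81. L of the 81 genes kept its sign under RLE, library size only and both other pseudocounts, in both trials. Called genes, low against high KPY, numbered 44 to 67 (Meunna) and 0 to 75 (Florentine) when 1 library was left out, and stayed between 65 and 80 under the other tools, scalings and filters, with a replicate block giving 65 in Meunna and 67 in Florentine.

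For the trial difference in high KPY, the number of genes higher in Florentine was 4 with TMM factors of each trial's whole table, which shifted the median of all genes to -0.20 log2, 11 with DESeq2, 15 with only the high KPY libraries, 12 with the replicate block, 21 with both (chosen after seeing the data), 0 at an FDR of 0.01, and 2 to 10 when 1 library was left out. The number lower, 0 in the fit reported, was 1 with only the high KPY libraries and 3 with the block added, and 0 when any 1 library was left out. In low KPY the number higher was 4 with only the low KPY libraries, 6 at an FDR of 0.01 and 9 to 34 when 1 library was left out, and 31 with the replicate block. In neither class do the numbers pair bulks of the same trees. The number lower was 0 with only the low KPY libraries, with or without the replicate block, and at an FDR of 0.01, and 0 to 1 when 1 library was left out. The causes were not tested. Medians of the CV moved by less than the spread between genes under RLE and library size only. Depth limits the low KPY values most, since 2 genes had 0 counts in some library.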
